A study of Mus musculus with 2 samples.

Results

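In all, 10 genes of the CC chemokine family, of 23988 genes with a usable name, were followed in untransformed mouse myeloid progenitors, chosen by symbol as Ccl2, Ccl3, Ccl4, Ccl5, Ccl6, Ccl7, Ccl9, Ccl17, Ccl22 and Ccl24. All 10 symbols were found. The series comprised 1 group of 2 RNA-seq libraries, here replicate 1 and replicate 2, both made from lineage-depleted bone marrow of C57BL/6 mice cultured for 7 days in medium with IL3, SCF and IL6. No treatment, genotype change or leukaemic group enters these values, and nothing in the labels tells whether separate animals or cultures were used. Values are RPKM, reads divided by gene length and library size, so levels can be set side by side between genes as far as the lengths used were right.

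CC chemokines are small secreted proteins, named for a pair of adjacent cysteines, that guide leukocytes by binding G protein-coupled receptors on their surface. Myeloid cells are a main source of them. Ccl2 and Ccl7 recruit monocytes through CCR2, while Ccl3, Ccl5, Ccl6 and Ccl9 act on CCR1, and Ccl4 is a close relative of Ccl3. The pair Ccl17 and Ccl22 attracts T cells through CCR4, and Ccl24, an eotaxin, attracts eosinophils through CCR3. Ccl6 and Ccl9 are rodent chemokines made by myeloid cells, and Ccl2, Ccl3, Ccl4 and Ccl7 are classical products of activated macrophages.

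Most of the members lie side by side on chromosome 11 in the RefSeq annotation of GRCm38.p6, an assembly that differs from the mm9 build named by the submitters. Ccl5, Ccl9, Ccl6, Ccl3 and Ccl4 are 5 consecutive protein-coding genes there, and Ccl2 and Ccl7 are neighbours in a second stretch of the same chromosome. On chromosome 8, 1 coding gene, Cx3cl1, separates Ccl22 from Ccl17, and on chromosome 5 Ccl24 follows Ccl26. In GENCODE vM21 the coding transcripts of Ccl6 and Ccl9 have 4 exons and those of the other members 3. They encode 116 and 122 residues, against 91 to 103 for Ccl3, Ccl4, Ccl5, Ccl7, Ccl17 and Ccl22, 119 for Ccl24 and 148 for Ccl2.

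RefSeq's promoter table held 5 of the 10 members. The 250 bases before the annotated start are shown for the neighbours Ccl6 and Ccl9 and for the pair Ccl22 and Ccl17. Ccl6 was the highest member, and Ccl9 had the highest level among the rest in replicate 2. All 5 members held there, the unshown Ccl3 among them, were higher in replicate 2. Each sequence is the gene's own strand, 5′ to 3′, in build GRCm38.p6, and capitals mark matches to the motifs named after them. The windows are chr11:83593088-83593337 (minus strand) for Ccl6, chr11:83578637-83578886 (minus strand) for Ccl9, chr8:94745434-94745683 (plus strand) for Ccl22 and chr8:94810203-94810452 (plus strand) for Ccl17.
Ccl6: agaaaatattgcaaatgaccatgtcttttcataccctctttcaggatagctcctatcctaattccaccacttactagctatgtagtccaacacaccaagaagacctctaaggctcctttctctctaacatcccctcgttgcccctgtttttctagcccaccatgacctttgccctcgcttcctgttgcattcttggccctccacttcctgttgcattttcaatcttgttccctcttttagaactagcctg
Ccl9: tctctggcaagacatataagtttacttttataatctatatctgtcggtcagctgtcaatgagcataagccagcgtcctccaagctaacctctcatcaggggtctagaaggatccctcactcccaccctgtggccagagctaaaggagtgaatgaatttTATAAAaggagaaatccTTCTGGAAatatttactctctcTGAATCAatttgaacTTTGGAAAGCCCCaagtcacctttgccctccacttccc
Ccl22: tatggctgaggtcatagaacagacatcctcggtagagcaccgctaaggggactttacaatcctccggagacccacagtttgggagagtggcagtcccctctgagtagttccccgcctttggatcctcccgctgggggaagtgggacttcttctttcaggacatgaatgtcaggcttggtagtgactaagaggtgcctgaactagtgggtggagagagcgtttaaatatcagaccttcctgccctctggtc
Ccl17: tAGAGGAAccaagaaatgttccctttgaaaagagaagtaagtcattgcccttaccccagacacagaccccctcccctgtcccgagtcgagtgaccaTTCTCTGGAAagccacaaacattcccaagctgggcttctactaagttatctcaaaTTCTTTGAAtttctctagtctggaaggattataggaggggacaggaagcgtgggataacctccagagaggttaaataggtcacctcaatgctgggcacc

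Motifs of 8 kinds were searched, and each is given with its share among the 32851 promoter windows of the same length in the table. The core promoter box TATAAA was searched on the gene's strand and was held by 7.59% of windows. All other motifs were searched on both strands. The NF-kB motif GGGNNTTTCC was held by 1.41% of windows. The AP-1 motif TGANTCA was held by 6.75%, and the C/EBP motif TTNNGNAA by 36.8%. The PU.1 motif AGAGGAA was held by 8.55%. The STAT motif TTCNNNGAA was held by 7.02%, the STAT6 motif TTCNNNNGAA by 5.85% and the IRF motif GAAANNGAAA by 2.98%. The Ccl9 window held the core promoter box starting 92 bases before the start, an AP-1 match starting 53 bases before the start, and C/EBP matches starting 75 and 38 bases before it. Its NF-kB match, on the opposite strand and starting 35 bases before the start, overlaps the nearer C/EBP match. Matches in the Ccl17 window were a PU.1, a STAT6 and a STAT motif, which start 249, 154 and 99 bases before the start. Neither the Ccl6 nor the Ccl22 window held a match, and that of Ccl3, which is not shown, held a C/EBP motif. The longest run shared by any pair of the 5 windows was the 13 bases gccctccacttcc of Ccl6 and Ccl9, present in 3 of the 32851 windows. It starts 55 bases before the start of Ccl6 and 14 bases before that of Ccl9. These matches are descriptions of the letters only.

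The label of the cells was checked against marker genes. Genes of stem cells and early progenitors were detected, meaning 1 RPKM or more in both libraries, for 8 of 12, among them Gata2 and Lmo2. Over all genes the detected share was 43.5%. All 12 neutrophil genes were detected, with S100a9 and S100a8 highest, and 11 of 12 monocyte and 12 of 14 macrophage genes. Genes of maturing myeloid cells were thus detected beside those of progenitors, and in such bulk RNA fewer cells of a type and less RNA per cell cannot be told apart. Few genes of B cells (1 of 9, Cd79b), of red cells (3 of 10, among them Tfrc and Gata1) and of stroma and endothelium (3 of 11, among them Pecam1 and Pdgfrb) were detected, and 8 of 10 megakaryocyte genes, led by Itgb3 and Itga2b. Of the lymphoid markers Cd3e, Ncr1, Ms4a1, Pax5 and Ebf1 were listed at 0 in both libraries. Genes with equal reads in both libraries and genes with 1 transcript gave effective library sizes of 29941063 and 28793666 reads in replicates 1 and 2. The smallest p that an exact permutation of signs over 2 libraries allows is 0.5, so no test was run and differences between the libraries have no replicate check.

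Most of the RNA of the CC chemokine genes came from Ccl6, and the members ranged from one of the most abundant mRNAs of the libraries to the edge of detection. The summed level of the 10 members was 1479 RPKM in replicate 1 and 2557 in replicate 2, a mean of 2018 ± 762 (SD, n = 2). This was 0.241% and 0.415% of the summed RPKM of all genes. Of the members, 9 of 10 were detected in both libraries, against 43.5% of all genes, and Ccl5 was the exception. Levels spanned a 2893-fold range from Ccl5 to Ccl6 in replicate 1 and a 266-fold range in replicate 2.

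**Figure D1:**
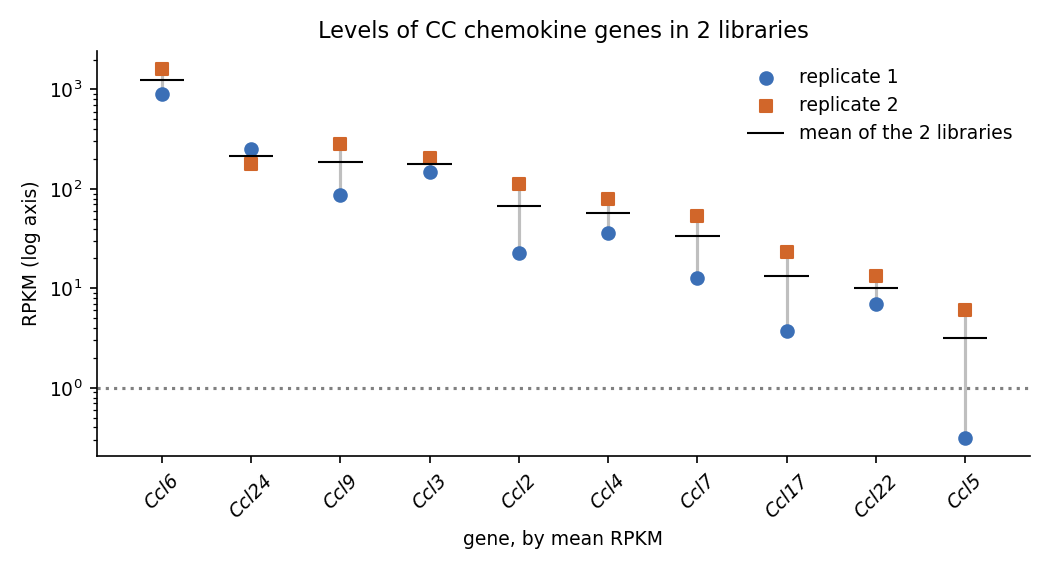
RPKM (log axis) of each CC chemokine gene in replicate 1 (circles) and replicate 2 (squares), with the mean of both as a bar and 1 RPKM as a dotted line. Ccl6 is highest in both libraries, Ccl24 alone is lower in replicate 2, and Ccl5 alone lies under 1 RPKM, in replicate 1.

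Among Ccl3, Ccl4, Ccl5, Ccl6 and Ccl9, whose genes adjoin, Ccl6 was the most abundant in both libraries. Its level was 909.7 RPKM in replicate 1 and 1599.9 in replicate 2, a mean of 1255 ± 488 RPKM (SD, n = 2), and ranked 89th and 45th of all genes. Its share of the summed CC chemokine RPKM was nearly equal in the libraries, at 61.5% and 62.6%. Ccl9, the related rodent chemokine whose gene is the neighbour of Ccl6, stood at 87.5 and 286 RPKM, 187 ± 140 (SD, n = 2). That moved Ccl9 from the fourth to the second place among the members, with 5.92% and 11.2% of their sum.

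Ccl3, which encodes MIP-1 alpha, varied least of the genes that were higher in replicate 2. Its values were 149 and 206 RPKM, 178 ± 40.4 (SD, n = 2), the third highest in both libraries. Ccl4, which encodes MIP-1 beta and adjoins Ccl3, was lower at 36.1 and 79.7 RPKM, 57.9 ± 30.8 (SD, n = 2). The ratio between the libraries was thus larger for Ccl4 than for its neighbour. In the RefSeq annotation of GRCm38.p6 the gene models of Ccl3 and Ccl4, on opposite strands, overlap by 755 bases, in GENCODE vM21 by 0. Whether counting used strand is not given in the sources used here, so reads from any such overlap could not be told apart. The shortest gene length that fits the Ccl4 values, 660 bp, is that of its GENCODE transcript. This did not hold for every member, as for Ccl3 with 790 against 766 bp and Ccl6 with 359 against 1440 bp. Multiples of the fitted lengths would fit as well.

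Ccl5, or RANTES, a chemokine best known from T and NK cells, was the lowest member. Its level was 0.314 RPKM in replicate 1 and 6.02 in replicate 2, 3.17 ± 4.03 (SD, n = 2), values that correspond to at least 5 and 92 reads. Among 13 genes of T and NK cells only Nkg7 was detected, at 8.76 and 14.9 RPKM, above Ccl5 in both libraries, and the 13 summed to 11.3 and 17.5 RPKM. Cd3e and Ncr1 were listed at 0 in both libraries. The part of such cells in the level of Ccl5 was not tested.

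The CCR2 ligands Ccl2, which encodes MCP-1, and Ccl7, which encodes MCP-3, differed strongly between the libraries and in like measure. The Ccl2 level was 22.5 RPKM in replicate 1 and 112 in replicate 2, 67.3 ± 63.4 (SD, n = 2). Ccl7 stood at 12.8 and 53.9 RPKM, 33.4 ± 29.1 (SD, n = 2). In both libraries Ccl2 exceeded Ccl7, by 0.90 ± 0.20 (SD, n = 2) in log2(RPKM + 1). The pair held 2.39% of the CC chemokine sum in replicate 1 and 6.49% in replicate 2.

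The CCR4 ligands were low and did not keep their order. Ccl17, or TARC, stood at 3.77 and 23.2 RPKM, 13.5 ± 13.7 (SD, n = 2), and Ccl22, or MDC, at 7.04 and 13.2 RPKM, 10.1 ± 4.35 (SD, n = 2). Ccl22 was thus the higher of the 2 in replicate 1 and Ccl17 in replicate 2, with log2(RPKM + 1) differences, Ccl17 minus Ccl22, of -0.75 and 0.77.

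Ccl24, which encodes eotaxin-2, was the member with a higher level in replicate 1. Its level was 250.0 RPKM there and 177 in replicate 2, 213 ± 51.7 (SD, n = 2). Its place among the members was the second in replicate 1 and the fourth in replicate 2, and its share of their sum 16.9% and 6.92%. Ccl26, its neighbour on chromosome 5 and likewise an eotaxin gene, was listed at 0 in both libraries. Eosinophil genes were present beside Ccl24, with 8 of 9 detected, against 43.5% of all genes, and sums of 132 and 111 RPKM. Epx and Prg2 were the highest of them, Epx at 58.9 and 35.8 RPKM and Prg2 at 36.7 and 30.6. Of the 8 that average 1 RPKM or more, 4 were higher in replicate 2, near the 44.1% of all such genes. The median log2 ratio of the 8 was 0.11. Il5ra, the gene not detected, stood at 0.936 and 0.951 RPKM. The part of eosinophil cells in the level of Ccl24 was not tested.

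Only some steps in the order of levels were larger than the spread between libraries. Of the 9 differences between neighbours in the order Ccl6, Ccl24, Ccl3, Ccl9, Ccl4, Ccl2, Ccl7, Ccl17, Ccl22 and Ccl5, 4 had the same sign in both libraries and a mean over 2 SD. These were Ccl6 over Ccl24 at 2.51 ± 0.93, Ccl9 over Ccl4 at 1.54 ± 0.41, Ccl2 over Ccl7 at 0.90 ± 0.20 and Ccl7 over Ccl17 at 1.36 ± 0.25 (log2(RPKM + 1), SD, n = 2). The steps among Ccl24, Ccl3 and Ccl9 did not exceed this spread, with 0.26 ± 0.68 for Ccl24 over Ccl3 and 0.15 ± 0.87 for Ccl3 over Ccl9. The same held for Ccl4 and Ccl2 at 0.09 ± 0.81 and for Ccl17 and Ccl22 at 0.01 ± 1.08. Ccl22 exceeded Ccl5 in both libraries, but by 1.81 ± 1.13, which is under 2 SD.

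By position, the members that exceeded 30 RPKM in both libraries were Ccl9, Ccl6, Ccl3 and Ccl4, neighbours on chromosome 11, and Ccl24 on chromosome 5. That cut was not set beforehand. In replicate 2 Ccl2 at 112 RPKM, above Ccl4 at 79.7, and Ccl7 at 53.9 exceeded it too. Ccl5, the first gene of the stretch that ends with Ccl4, did not exceed 6.02. In the other stretch Ccl2 and Ccl7 were followed by Ccl11, which did not exceed 0.0311 RPKM, by Ccl12 at 5.55 and 8.10, by Ccl8 at 1.31 and 4.62, and by Ccl1, which did not exceed 0.0661. Neighbouring genes could therefore differ widely in level within a single stretch.

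**Figure D2:**
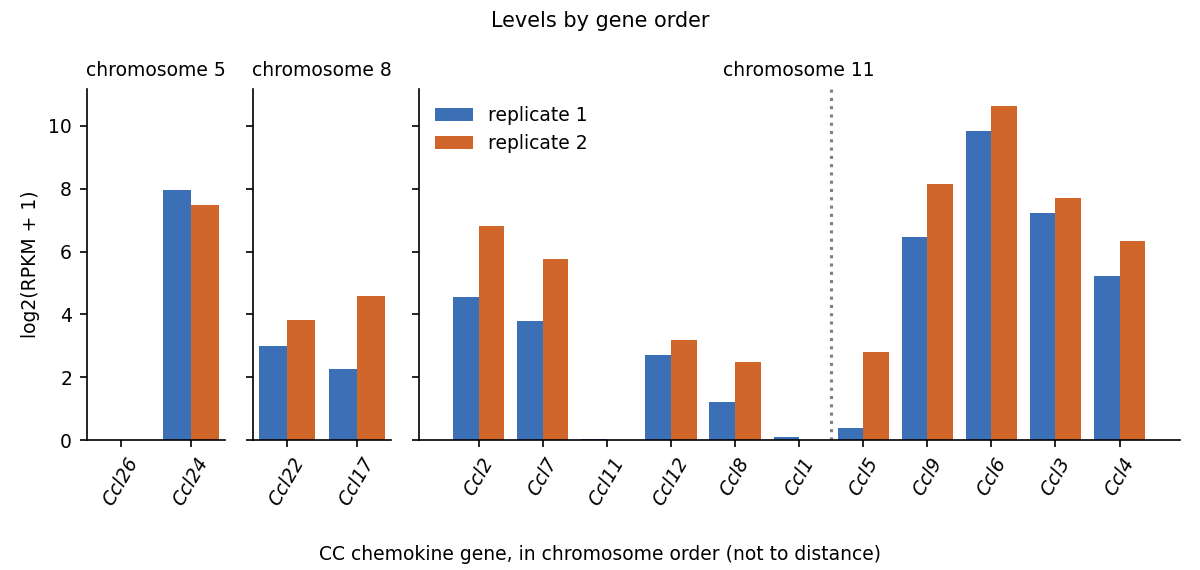
Level of CC chemokine genes as log2(RPKM + 1) in replicate 1 and replicate 2, in their order on chromosomes 5, 8 and 11, not to distance. A dotted line parts the 2 stretches of chromosome 11, Ccl6 stands highest, and Ccl24 on chromosome 5 stands beside Ccl26, which is listed at 0.

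Between the libraries, 9 of the 10 members were higher in replicate 2, against 44.1% of the 10896 genes that average 1 RPKM or more. Of the members 6 of 10, Ccl2, Ccl4, Ccl5, Ccl7, Ccl9 and Ccl17, were at least 2-fold higher in replicate 2 on the scale of RPKM + 1, against 5.3% of those genes. In replicate 1 0 members were at least 2-fold higher, against 0.734% of genes. In log2 units the median ratio, with replicate 1 as the denominator, was 1.41 for the members and -0.05 for all those genes. Because the members were proposed with earlier results of these data known, the counts describe them and are no test.

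The largest ratio was that of Ccl5 at 19.1-fold, with a 95% interval of 7.91 to 60.3 from its few reads. Such intervals cover counting error only, not the spread between cultures, and reads are not independent molecules. Ccl17 was 6.15-fold higher in replicate 2 (4.64 to 8.27), Ccl2 4.98-fold (4.54 to 5.48) and Ccl7 4.20-fold (3.71 to 4.78). The intervals of these 3 genes overlap, while those of Ccl2 and Ccl9 do not meet. For Ccl9 the ratio was 3.27 (3.15 to 3.39) and for Ccl4 2.21 (2.02 to 2.42). Ccl22 at 1.87 (1.65 to 2.13) and Ccl6 at 1.76 (1.72 to 1.80) came next. Ccl3 showed 1.38 (1.32 to 1.44), and Ccl24 was 1.41-fold higher in replicate 1 (1.37 to 1.46).

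**Figure D3:**
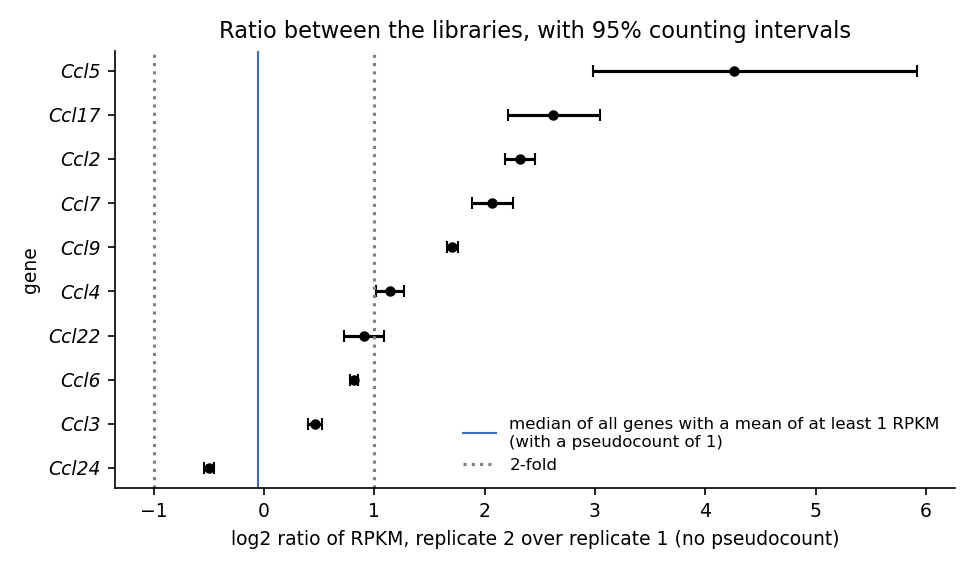
Log2 ratio of RPKM, replicate 2 over replicate 1, for each CC chemokine gene (points) with 95% intervals that cover counting error (bars), dotted lines at 2-fold and a solid line at -0.05, the median of all genes that average 1 RPKM or more. Ccl24 alone lies left of the solid line, and Ccl5 has the widest interval.

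The summed levels of groups of members differed in their ratios. The genes of the stretch from Ccl5 to Ccl4 summed to 1183 and 2178 RPKM, a ratio of 1.84. The CCR2 ligands, at 35.3 and 166 RPKM, had a ratio of 4.70. The sum of the CCR4 ligands was 10.8 and 36.4 RPKM, a ratio of 3.36.

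Other CC chemokine genes were scarce. Of 13 that are not members, 3 were detected, namely Ccl12, Ccl8 and Ccl25, against 43.5% of all genes. Together the 13 summed to 10.2 and 16.2 RPKM. Ccl12 encodes MCP-5, and Ccl8 encodes MCP-2. Ccl8 was 3.54-fold higher in replicate 2 (2.12 to 6.15), from at least 20 and 68 reads, and Ccl12 1.46-fold (1.10 to 1.94). The other non-members beside Ccl2 and Ccl7, Ccl11 and Ccl1, were listed at 0 in replicate 2. Ccl25, a thymus and gut chemokine, stood at 3.01 and 3.19 RPKM, and its ratio of 1.06 had an interval, 0.81 to 1.38, that includes 1. Of the 13 genes, 7 (Ccl19, Ccl20, Ccl21a, Ccl21b, Ccl21c, Ccl26 and Ccl28) were listed at 0 in both libraries. A count of 0 allows up to 3 reads, which is 0.10 RPKM in each library for a gene of 1 kb, and the copies of Ccl21 may lose shared reads in counting.

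Receptors for several of these ligands were expressed by the same cultures. Of 10 CC receptor genes, 4 were detected, namely Ccr1, Ccr2, Ccr7 and Ccr10, against 43.5% of all genes. Of these, 3 (Ccr1, Ccr2 and Ccr7) were at least 2-fold higher in replicate 2, against 5.3% of genes averaging 1 RPKM or more. Ccr1, the receptor of Ccl6 and Ccl9, stood at 49.2 and 111 RPKM, a ratio of 2.26 (2.18 to 2.35). Ccr2 stood at 28.8 and 160 RPKM, a ratio of 5.55 (5.34 to 5.77) beside the 4.98 of its ligand Ccl2. Ccr7, which binds Ccl19 and Ccl21, stood at 1.83 and 7.21 RPKM, and Ccr10 at 1.01 and 1.81.

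The receptor genes of Ccl17, Ccl22 and Ccl24, named after their values were seen, were under 1 RPKM in both libraries. Ccr4, which binds Ccl17 and Ccl22, stood at 0.0120 and 0.0498 RPKM, and Ccr3, which binds Ccl24, at 0.0612 and 0.499. At least 1 and 4 reads stand behind the values of Ccr4 and at least 6 and 47 behind those of Ccr3. Of the 5 atypical receptor genes, whose products bind chemokines without G protein signalling, Ccrl2 was detected, at 4.48 and 4.36 RPKM. Ackr3 was listed at 0 in replicate 1 and at 1.05 RPKM in replicate 2, and Ackr2, a scavenger of inflammatory CC chemokines, at 0 in both.

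**Figure D4:**
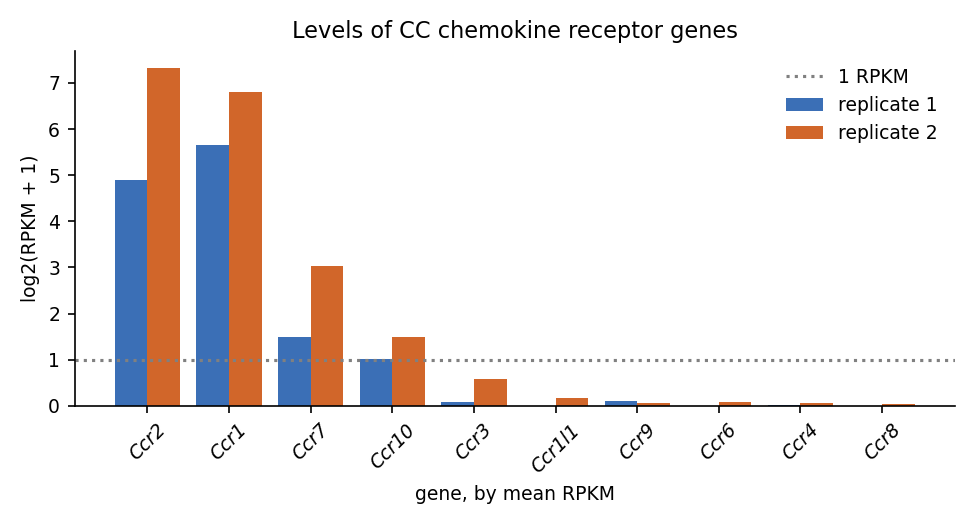
Level of 10 CC chemokine receptor genes as log2(RPKM + 1) in replicate 1 and replicate 2, ordered by mean RPKM, with 1 RPKM as a dotted line. Ccr2 and Ccr1 stand highest and are both higher in replicate 2, while Ccr3 and Ccr4 lie under the line in both libraries.

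Genes of the machinery downstream of the receptors were expressed throughout, and most differed less than 2-fold between the libraries. Of 20, 3 were at least 2-fold higher in replicate 2 (Gng2, Arrb1 and Rgs1), against 5.3% of genes averaging 1 RPKM or more. Toward replicate 1 the count was 0, against 0.734%. All 20 were detected, against 43.5% of all genes, and their median log2 ratio was 0.11. The highest were Adrbk1, a receptor kinase, at 349 and 345 RPKM, Arrb2, an arrestin, at 338 and 289, and Gnai2, a G protein subunit, at 289 and 328.

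Transcription factors known to act on CC chemokine genes were all detected, 14 of 14, against 43.5% of all genes. Of the 14, 5 were at least 2-fold higher in replicate 2, against 5.3% of genes averaging 1 RPKM or more. Those 5 were the AP-1 genes Fos and Jun and the interferon regulatory factor genes Irf4, Irf5 and Irf8. Fos stood at 18.0 and 91.0 RPKM and Irf8 at 7.91 and 29.6. Of the 5 NF-kB subunit genes 0 were at least 2-fold different. Among all genes averaging 1 RPKM or more, 5.3% were so toward replicate 2 and 0.734% toward replicate 1. A count of 0 among so few genes is near those shares. Rela stood at 79.6 and 82.7 RPKM and Nfkb1 at 79.2 and 70.5. The other NF-kB subunit genes were Rel at 12.0 and 10.4 RPKM, Nfkb2 at 6.01 and 7.17 and Relb at 2.55 and 5.01, the last with a ratio of 1.97 (1.65 to 2.35), all 3 named after their values were seen. Cebpb, the highest of the list, stood at 139 and 169 RPKM. All 7 NF-kB feedback genes were detected, and 0 were at least 2-fold different in either direction on the scale of RPKM + 1. By any amount 5 of 7 were higher in replicate 2, against 44.1% of genes averaging 1 RPKM or more. The median log2 ratio of the 7 was 0.47. The highest were Nfkbia at 44.2 and 44.0 RPKM, Tnip1 at 42.2 and 43.4 and Tnfaip3 at 7.49 and 10.7. The largest ratios, of genes named after their values were seen, were those of Bcl3 at 1.91 (1.68 to 2.18), Nfkbie at 1.89 (1.66 to 2.15) and Nfkbiz at 1.69 (1.49 to 1.92). Stat6, named after its values were seen, which relays interleukin 4 to genes such as Ccl17, Ccl22 and Ccl24, stood at 42.6 and 64.5 RPKM.

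Several other gene lists were higher in replicate 2 together with the CC chemokine genes. Of all genes averaging 1 RPKM or more, 5.3% were at least 2-fold higher in replicate 2. Immediate early genes, which respond within minutes to stimulation or handling, had 12 of 13 at least 2-fold higher, with sums of 220.4 and 816 RPKM. The highest were Ier3 at 48.5 and 132 RPKM, Atf3 at 43.5 and 129 and Jun at 42.2 and 98.3. Monocyte genes had 7 of 11 at least 2-fold higher and sums of 816 and 2058 RPKM, with Ly6c2 and Fn1 highest. Macrophage genes had 8 of 13 and sums of 1270 and 3543 RPKM, with Lyz2 and Ctsd highest. Dendritic cell genes had 3 of 4, with sums of 8.65 and 27.3 RPKM, Itgax and Ccr7 highest, and Cd209a and Siglech listed at 0 in replicate 1. Of the 10 dendritic cell genes only 3 were detected. Zbtb46, Xcr1 and Clec9a, named after their values were seen, were under 1 RPKM in both libraries. The 2-fold counts cover genes with a mean of 1 RPKM or more, and some genes are in more than 1 list, such as Fos, Jun, Irf8 and Ccr2.

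Granulocyte lists showed a mixed picture beside them. Mast cell genes had 5 of 8 at least 2-fold higher in replicate 2, with sums of 111 and 964 RPKM, Mcpt2 and Cma1 being highest and Mrgprb2 listed at 0 in replicate 1. Basophil genes had 4 of 10, with sums of 1451 and 2841 RPKM, Mcpt8 and Cpa3 being highest. Neutrophil genes had 1 of 12, Camp, and their sum was lower in replicate 2, 47936 against 58250.3 RPKM in replicate 1. That sum was dominated by S100a9, at 26131 and 18619 RPKM, and S100a8, at 17987 and 13323. By any amount, 5 of the 12 neutrophil genes were higher in replicate 2, against 44.1% of all genes averaging 1 RPKM or more. The median log2 ratio of the 12 was -0.26. Of 8 eosinophil genes, 1, Ear2, was at least 2-fold higher in replicate 2 and 1, Ear6, in replicate 1. The parts of these cell types and of immediate early genes in the differences of the CC chemokine genes were not tested.

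Genes that macrophages induce in response to interleukin 4, as they do Ccl17, Ccl22 and Ccl24, were all detected, against 43.5% of all genes. All 10 were higher in replicate 2, against 44.1% of genes averaging 1 RPKM or more. Of the 10, 3 were at least 2-fold higher there, namely Arg1, Clec10a and Retnla, against 5.3% of those genes. Arg1 stood at 9.18 and 166 RPKM, Mrc1 at 105 and 155 and Cish at 104 and 115. The list summed to 354 and 784 RPKM, while Ccl24 differed in the opposite direction.

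**Figure D5:**
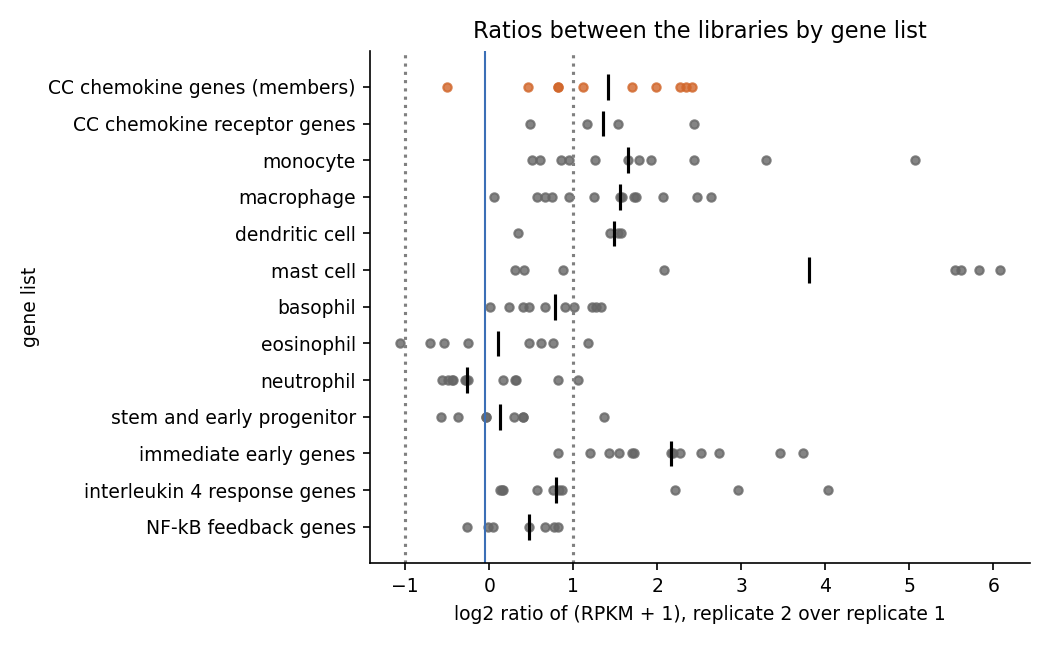
Log2 ratio of (RPKM + 1), replicate 2 over replicate 1, of the genes that average 1 RPKM or more in 13 gene lists (points, with the list median as a bar), dotted lines at 2-fold and a solid line at -0.05, the median of all such genes. The CC chemokine genes (top) have a median of 1.41, beside 2.16 for immediate early genes, 1.65 for monocyte genes and -0.26 for neutrophil genes.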

How the data were processed

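RNA was measured in 2 libraries. The authors deposited RPKM values, and the submitters' processing notes name Trimmomatic 0.32, TopHat2, HTSeq and edgeR with build mm9. The sources used here give no gene lengths, annotation or strand setting. Of 24015 rows, 27 named like dates (0.109% of RPKM in each library) were left out.

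Columns were assigned by name. Levels are RPKM with mean and SD over 2 libraries, ratios use a pseudocount of 1 over genes that average 1 RPKM or more, and differences of at least 2-fold are counted. Named genes are all members, other CC chemokines and receptors at 1 RPKM or more in either library, the 3 highest detected genes of each further list (2 of cell type lists), markers at 0, and genes behind a count of 5 or fewer. Neighbours of members by position and genes listed at 0 among CC chemokines and receptors are named as well. A gene of the receptor list is not reported here. The members, lists and motifs were chosen with earlier results of these data known.

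Genes with equal reads (474) gave the ratio of effective library sizes, 0.962, and 14 genes that agreed among 830 with 1 GENCODE transcript gave the scale. Such sizes may include a normalisation factor. The read numbers are the smallest whole numbers that fit, and 95% exact binomial intervals of their ratio cover counting error only. The size ratio, the recovery of reads and the log2 ratios were tested on simulated data. Of the members, Ccl9 alone shared 50-base stretches with other transcripts, 2% of them. Python 3.11.15, pandas 2.3.3 and scipy 1.17.1 were used.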

Additional observations from a re-analysis of the deposited data

How the results depend on the processing

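A difference of 2-fold or more toward replicate 2 was met by 6 members under 7 of 8 alternatives and by 5 where Ccl5 was left out by a mean of at least 5 RPKM. Toward replicate 1 it was met by 0 members under all 8. The alternatives were pseudocounts of 0.1 and 5, no pseudocount (chosen after seeing the data), no filter, a mean of at least 5 RPKM, and 3 scalings. All 79 single-gene ratios under these alternatives kept their direction, which only the 3 scalings could have reversed. The median log2 ratio of the members lay between 1.37 and 1.46 under the 3 scalings and was 1.05 with a pseudocount of 5 and 1.12 over the 9 members that average 5 RPKM or more. Detected members numbered 8 at 5 RPKM and 9 to 10 with 1 replicate left out. The summed level was 763 without Ccl6, 3283 with both libraries scaled to a common sum, and 3786 with the 10 highest genes left out of that sum, both by construction of the scale. With 1 replicate left out it was 1479 to 2557. Differences between neighbours beyond the spread remained 4 in number with a pseudocount of 0.1. Ratios between the libraries cannot be formed without either replicate. No paired analysis was possible because there is 1 group. Depth limits the values of Ccl5, Ccr3 and Ccr4 in replicate 1, which rest on few reads.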

Other observations

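Chemokine genes outside the CC family were lower than the leading CC genes. Of 17 such genes, 5 were detected, Pf4, Cxcl2, Ppbp, Cxcl16 and Cxcl10, against 43.5% of all genes. All 17 summed to 23.4 and 61.7 RPKM in replicates 1 and 2. Pf4 and Ppbp, which platelets store, stood at 10.1 and 20.6 and at 2.89 and 12.9 RPKM. Cxcl2, a neutrophil attractant, stood at 4.83 and 15.0 RPKM.

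Enzymes that trim chemokines fell into sets that differed in opposite directions. The neutrophil serine protease genes were lower in replicate 2, Elane at 1327 and 1087 RPKM, Prtn3 at 1135 and 935 and Ctsg at 753 and 508. The metalloprotease genes Mmp8, Mmp9 and Mmp12, 3 of the 7 with a mean of 1 RPKM or more, were at least 2-fold higher there. Over all genes with such a mean the share was 5.3%. Mmp12 (macrophage elastase) stood at 101 and 525 RPKM. Of 6 genes whose products control the stability of mRNAs such as those of Ccl2 and Ccl3, Zfp36 and Zfp36l1 were at least 2-fold higher in replicate 2. Zfp36, which encodes tristetraprolin, stood at 14.0 and 46.6 RPKM and Zfp36l1 at 8.52 and 52.4. The highest of the 6, Hnrnpd at 121 and 90.9 RPKM and Zfp36l2 at 70.3 and 83.7, differed less.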
